A study of Rattus norvegicus with 12 samples.

Results

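The 37 genes described here are genes of macrophages and other myeloid cells, measured in dorsal root ganglia of rats given a chemotherapy drug. They were chosen by symbol, from a list of macrophage surface receptors and of myeloid transcription factors, integrins, signalling adaptors, oxidase subunits and lysosomal proteins, and make up 37 of the 20152 genes listed in any library. Of them, 36 were listed in all 12 libraries, and Vsig4, a complement receptor of resident macrophages, had an estimated count of 1 in 4 libraries and 0 in the other 8. The dorsal root ganglion holds the cell bodies of sensory neurons, next to the spinal cord. RNA was sequenced in 4 libraries from rats injected intraperitoneally with oxaliplatin at 2.4 mg/kg, a platinum compound dissolved in glucose solution, 4 from rats injected with paclitaxel at 2.0 mg/kg, a microtubule-stabilising drug given in DMSO and saline, and 4 from rats given vehicle. Both drugs were given to produce painful peripheral neuropathy. The sources used here do not give the strain, sex or age of the rats, the number of injections, the time of tissue collection or the composition of the vehicle. With 1 vehicle group for 2 solvents, a drug and its solvent cannot be told apart. Nor is it stated whether each replicate is a different animal, and p-values therefore reflect only how these libraries varied, which may be technical.

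Macrophages lie among the neuron cell bodies and satellite glial cells of the ganglion, clear debris and apoptotic cells, and are known to respond to nerve injury and to chemotherapy drugs. Their survival depends on the receptor CSF1R, and the transcription factor PU.1, encoded by Spi1, is required for the myeloid lineage. Signals from many of their surface receptors pass through short adaptor proteins with ITAM motifs, which recruit the kinase SYK after phosphorylation by kinases of the SRC family such as LYN.

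Library totals ran from 17008728 to 17615736 estimated counts, and 15809 genes, among them 36 of the 37 members, passed the filter on low counts. Vsig4 did not pass. Levels are given in CPM, counts scaled to library size, which compare 1 gene across libraries, or in FPKM, which is also scaled to transcript length and so compares genes. A gene was called when its adjusted p was under 0.05 in the quasi-likelihood test of edgeR, adjusted by Benjamini-Hochberg over all 15809 genes. Markers of sensory neurons were abundant in all libraries, with summed levels of 12221 to 15228 CPM after oxaliplatin, 16580 to 22496 CPM after paclitaxel and 15675 to 17641 CPM in vehicle libraries. Paclitaxel library 1 stood apart, with the lowest level of all 12 libraries for 32 of the 36 members tested. The share of all genes lowest in it was not counted. It also had the lowest mean level of neutrophil, erythroid, B and plasma cell and fibroblast markers, and the highest of sensory neuron markers. Markers of satellite glia, Schwann cells and endothelium were lowest in other libraries. Oxaliplatin libraries 1 and 3 stood apart in another way, with the highest levels of B-cell markers and of erythroid markers. They also had the highest levels of neutrophil markers within the oxaliplatin group. The reads of 10 members may be shared with another gene, because their estimated counts were not whole in more than 6 libraries, and their values are uncertain. These are Lyz2, Cx3cr1, Cd163, Msr1, Siglec1, Itgb2, Syk, Dock2, Cd53 and Ncf1.

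After paclitaxel, macrophage and myeloid genes had lower mean levels than in vehicle ganglia. All 36 members tested had a negative fold change, with a median log2 fold change of -0.81 against -0.01 over all 15809 genes. The test called 4 of them lower, Adgre1, Spi1, Tifab and Blnk, and none higher, against 0.0380% of all genes called lower and 0.120% called in either direction. An unadjusted p under 0.05 was found for 28 members, against 17.1% of all genes. For 22 members no paclitaxel library reached the lowest vehicle library, against 3.08% of all genes. Because the tissue is bulk, fewer macrophages and less RNA per macrophage cannot be told apart. Markers of other cells also differed in the same comparison, with 0 called in each of the lists named here. All 12 neutrophil, 11 erythroid, 8 fibroblast and 6 satellite glia markers tested were lower. So were 7 of 8 B and plasma cell markers, while 11 of 12 sensory neuron markers were higher. Their part in the members' differences was not tested. The number of members called rested on single libraries. It was 0 when vehicle library 1, 2 or 3 or paclitaxel library 1 or 3 was left out. It was 1 without paclitaxel library 2, 2 without oxaliplatin library 1 or 2 and 15 without paclitaxel library 4. Without paclitaxel library 4, 1631 of all genes were called, against 19 with all libraries. The other fits that left out 1 library called 10 to 24 of all genes. DESeq2 called 18 members, with 247 of all genes called, and limma voom called 17 members, with 2017 of all genes called. In every setting run all 36 fold changes stayed negative.

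After oxaliplatin, the members showed no common direction against vehicle. Of the 36 tested, 17 had a lower and 19 a higher mean, and the median log2 fold change was 0.02 against 0.01 over all genes. edgeR called 0 members, where 1.76% of all genes were called, and 7 of the 36 had an unadjusted p under 0.05, close to the 17.2% of all genes that did. Of those 7, Adgre1, Csf1r, Cd163 and Ms4a7 had a lower mean after oxaliplatin, and Irf5, Blnk and Cd68 a higher one. DESeq2 called 2 members, limma voom 1 and limma on log2(FPKM + 1) 1, where they called 881, 599 and 330 of all genes. No member lay wholly below the vehicle libraries, against 5.76% of all genes, and 1 member, Cd68, lay wholly above them, against 5.54%.

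Set directly against each other, the drugs differed: all 36 members were higher after oxaliplatin than after paclitaxel, with a median log2 fold change of 0.73 against 0.00 over all genes. The test called 16 members higher, against 6.60% of all genes called higher, and 20 members did not overlap, against 9.17%. The called members were Spi1, Irf5, Tifab, Cd68, Csf1r, Cd86, Itgam, Itgb2, Fcer1g, Syk, Lyn, Blnk, Cyth4, Ptprc, Cybb and Cyba. Spi1, Irf5, Syk, Lyn, Blnk and Cd68 were called in each of the 12 fits that left out 1 library. They were also called in each of the 9 other planned settings. Of the other 10, Ptprc was called in 10 of those 12 fits, Fcer1g and Cyth4 in 8, Tifab in 7, Cyba in 6, Cd86, Itgam and Cybb in 5, Csf1r in 4 and Itgb2 in 2. The count was 7 without paclitaxel library 1, 6 without paclitaxel library 3, 8 without oxaliplatin library 2 and 6 without oxaliplatin library 3. It was 3 with both oxaliplatin libraries 1 and 3 left out, a fit chosen after seeing the data. Spi1, Blnk and Cd68 were called in that fit, and Irf5, Syk and Lyn were not. In the same order, these fits called 810, 601, 901, 571 and 93 of all genes, against 1788 with all libraries. This comparison shares its paclitaxel libraries with the first and its oxaliplatin libraries with the second, so the 3 are not independent of each other. Markers of other cells differed in the same comparison: all 8 fibroblast markers were higher after oxaliplatin than after paclitaxel (5 called, median log2 fold change 0.70), as were all 9 endothelial markers (3 called, median 0.47), while all 12 sensory neuron markers were lower (5 called, median -0.38). Their part in the members' differences was not tested.

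**Figure D1:**
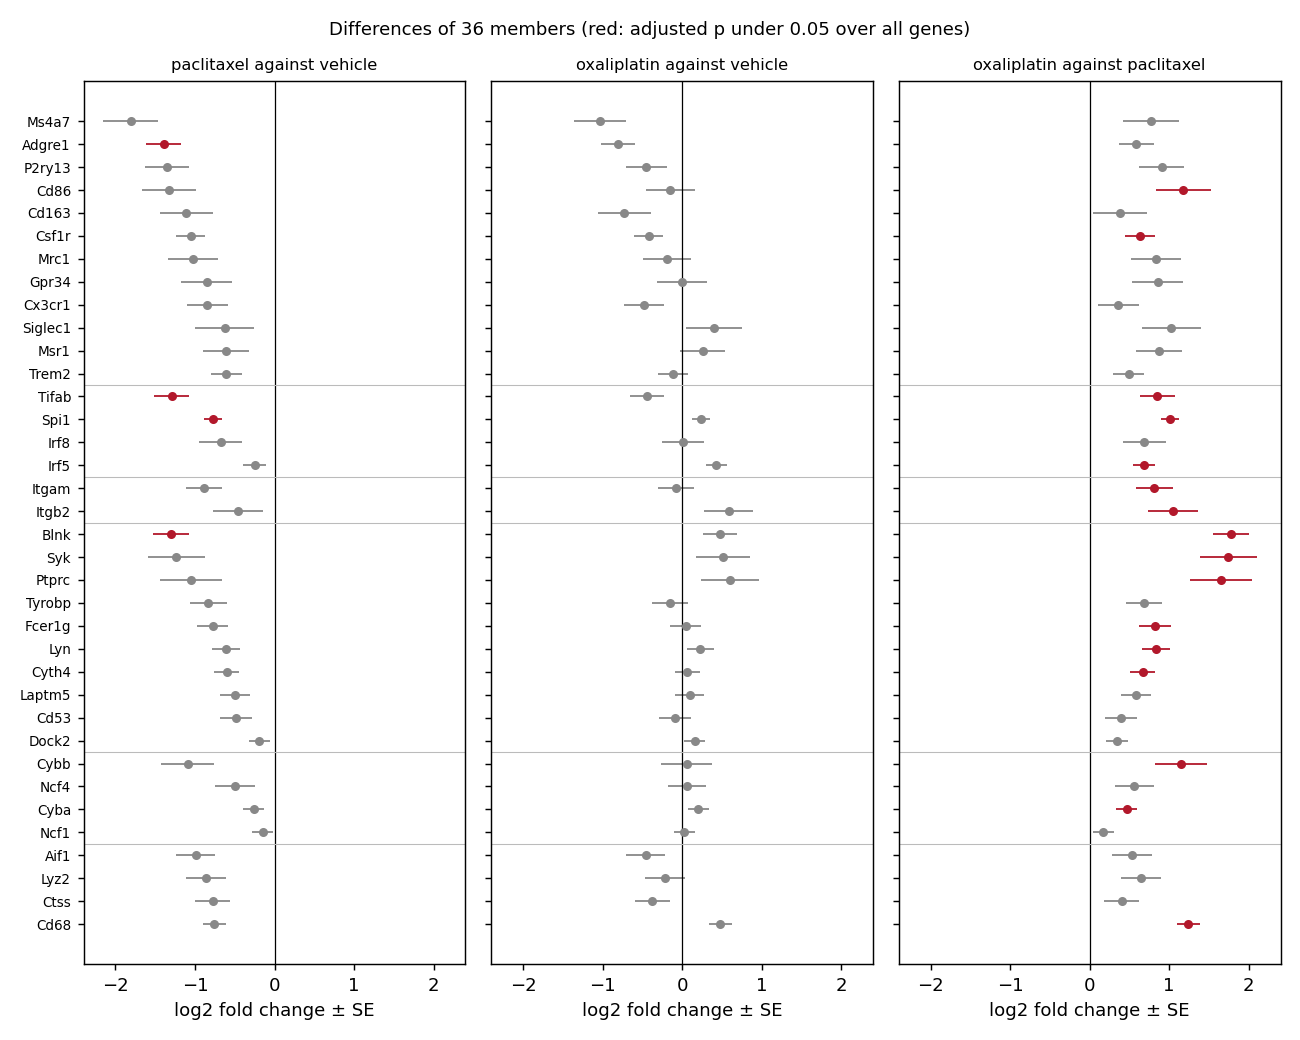
Log2 fold change ± standard error of the 36 members tested, ordered by role down the page, for paclitaxel against vehicle, oxaliplatin against vehicle and oxaliplatin against paclitaxel, with members called at an adjusted p under 0.05 in red. All 36 lie left of 0 for paclitaxel against vehicle, 17 left and 19 right for oxaliplatin against vehicle, and all 36 right of 0 for oxaliplatin against paclitaxel.

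The members spanned a wide range of levels in vehicle ganglia. Lyz2, which encodes the lysozyme of macrophages and neutrophils, had the highest mean at 251 ± 65.3 FPKM, and its vehicle libraries did not overlap those of the next member. Tyrobp followed with 38.7 ± 12.7 FPKM, then Fcer1g with 28.4 ± 7.96, Cyba with 28.1 ± 4.62, Ctss with 27.7 ± 5.53, Aif1 with 27.6 ± 8.66, Csf1r with 18.4 ± 4.21 and Laptm5 with 17.5 ± 2.96 FPKM (SD, n = 4). Each of these overlapped its neighbour in the order, while Laptm5 did not overlap Cd53, the next, at 9.87 ± 1.49 FPKM. Of the 37 members, 8 had a mean of at least 10 FPKM, 27 lay between 1 and 10 and 2, Siglec1 and Vsig4, were under 1. Of the 36 neighbouring pairs, 32 overlapped, so most of the order is not resolved beyond the spread. Lyz2 alone made up 30.1% to 40.8% of the members' summed CPM, so a summed level leans on it. The summed level was 631 to 834 CPM after oxaliplatin, 286 to 539 CPM after paclitaxel and 618 to 945 CPM in vehicle libraries.

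**Figure D2:**
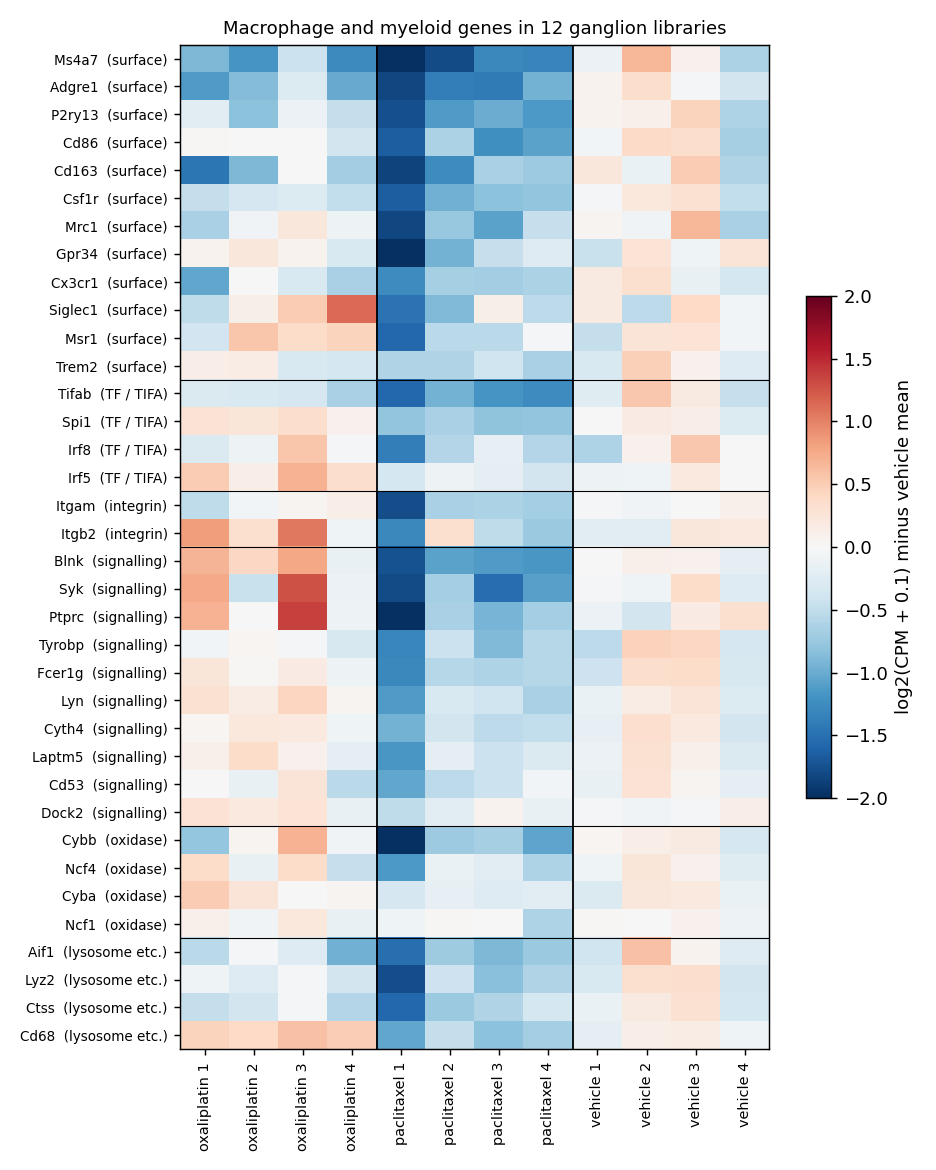
Level of the 36 members tested in each of the 12 libraries, as log2(CPM + 0.1) minus the mean of the vehicle libraries, with colours cut at -2 and 2 and members grouped by role. The paclitaxel columns are blue for nearly all members and darkest for library 1, which was the lowest of all 12 libraries for 32 members, while oxaliplatin library 3 was the highest of all for 12.

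Among the surface receptors, 12 of 13 were tested, and their median log2 fold change was -1.04 after paclitaxel and -0.31 after oxaliplatin, each against vehicle. Adgre1, which encodes the adhesion receptor known in mice as F4/80, had 7.91, 9.54, 14.4 and 8.60 CPM after oxaliplatin, 4.84, 6.63, 6.45 and 9.003 CPM after paclitaxel and 18.4, 22.2, 16.9 and 13.4 CPM in vehicle libraries, each in the order of replicates 1 to 4. All paclitaxel libraries lay below all vehicle libraries, and only oxaliplatin library 3 reached the vehicle range. It fell 2.63-fold after paclitaxel (log2 fold change -1.39 ± 0.22, adjusted p = 0.0194, edgeR), and the difference after oxaliplatin did not pass (log2 fold change -0.81 ± 0.21, adjusted p = 0.0744), nor did that between the drugs (log2 fold change 0.59 ± 0.22, adjusted p = 0.0981). Without oxaliplatin library 3, Adgre1 was also called lower after oxaliplatin against vehicle (adjusted p = 0.0374), as it was by DESeq2 with all libraries (adjusted p = 0.0110). The paclitaxel call was lost without vehicle library 1, 2 or 3 or paclitaxel library 1, 2 or 3, with adjusted p-values up to 0.111.

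Csf1r encodes the receptor for the macrophage growth factors CSF1 and interleukin 34. Its levels were 48.6, 53.6, 56.03 and 47.9 CPM after oxaliplatin, 21.4, 34.6, 38.002 and 38.9 CPM after paclitaxel and 66.5, 78.4, 83.7 and 47.8 CPM in vehicle libraries. Paclitaxel libraries were lowest and did not overlap either other group, and vehicle library 4 was as low as the oxaliplatin libraries. The difference between oxaliplatin and paclitaxel passed (log2 fold change 0.63 ± 0.19, adjusted p = 0.0437, edgeR), while paclitaxel against vehicle missed the threshold narrowly (log2 fold change -1.06 ± 0.19, adjusted p = 0.0514) and oxaliplatin against vehicle gave log2 fold change -0.42 ± 0.18, adjusted p = 0.255. Without paclitaxel library 1 the log2 fold change between the drugs was 0.47 and was no longer called. That call was also lost without vehicle library 1, paclitaxel library 2 or 3 or any 1 of the 4 oxaliplatin libraries, with adjusted p-values up to 0.118.

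Ms4a7, a membrane protein of macrophages, had the most negative fold changes of all members against vehicle in both drug groups. Its levels were 1.27, 1.03, 1.81 and 0.955 CPM after oxaliplatin, 0.423, 0.645, 0.947 and 0.929 CPM after paclitaxel and 2.25, 3.98, 2.63 and 1.55 CPM in vehicle libraries. Paclitaxel libraries lay below all vehicle libraries and all oxaliplatin libraries, and oxaliplatin library 3 overlapped vehicle library 4. None of its comparisons passed: paclitaxel against vehicle gave log2 fold change -1.81 ± 0.34, adjusted p = 0.0759, and oxaliplatin against vehicle gave log2 fold change -1.03 ± 0.32, adjusted p = 0.120.

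Cd86, a costimulatory ligand for T cells that B cells and dendritic cells also carry, was low throughout, with 0.982, 0.977, 0.960 and 0.730 CPM after oxaliplatin, 0.242, 0.587, 0.355 and 0.407 CPM after paclitaxel and 0.925, 1.29, 1.26 and 0.574 CPM in vehicle libraries. Every oxaliplatin library lay above every paclitaxel library, and it was called between the drugs (log2 fold change 1.18 ± 0.34, adjusted p = 0.0402, edgeR) but not for paclitaxel against vehicle (log2 fold change -1.33 ± 0.34, adjusted p = 0.190). The call between the drugs was lost without vehicle library 1, paclitaxel library 1, 2 or 3 or oxaliplatin library 1, 2 or 3, and in 4 of the 9 other settings. The scavenger receptor Cd163, which takes up haemoglobin bound to haptoglobin, had 6.01, 8.79, 16.5 and 10.1 CPM after oxaliplatin, 4.47, 6.86, 10.5 and 9.93 CPM after paclitaxel and 19.3, 15.02, 23.3 and 10.8 CPM in vehicle libraries. Vehicle libraries were above all paclitaxel libraries, and the drug groups overlapped. Neither drug's difference passed, at log2 fold change -1.11 ± 0.34, adjusted p = 0.209 for paclitaxel and log2 fold change -0.72 ± 0.33, adjusted p = 0.285 for oxaliplatin.

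Mrc1, the mannose receptor CD206, had 20.4, 30.6, 37.6 and 30.1 CPM after oxaliplatin, 9.01, 18.9, 15.2 and 23.3 CPM after paclitaxel and 33.5, 30.8, 50.9 and 20.5 CPM in vehicle libraries. Its paclitaxel range overlapped both others, and paclitaxel against vehicle gave log2 fold change -1.03 ± 0.31, adjusted p = 0.209. Trem2, a lipid-sensing receptor that signals through TYROBP, had 7.45, 7.58, 5.48 and 5.34 CPM after oxaliplatin, 4.47, 4.46, 5.15 and 4.30 CPM after paclitaxel and 5.49, 9.53, 7.27 and 5.68 CPM in vehicle libraries. Its paclitaxel libraries lay below all others within a narrow range, and the difference from vehicle did not pass (log2 fold change -0.60 ± 0.19, adjusted p = 0.212). P2ry13, a receptor for ADP, missed the threshold by little between the drugs (log2 fold change 0.90 ± 0.28, adjusted p = 0.0502), and its paclitaxel libraries overlapped neither other group. Of the rest, Cx3cr1, the fractalkine receptor, lay below vehicle after paclitaxel without overlap, whereas Gpr34, a receptor for lysophosphatidylserine, Msr1, a scavenger receptor, and Siglec1, a sialic acid receptor also known as CD169, overlapped in all comparisons. Their log2 fold changes for paclitaxel against vehicle were -0.84, -0.85, -0.61 and -0.63, none of them called.

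**Figure D3:**
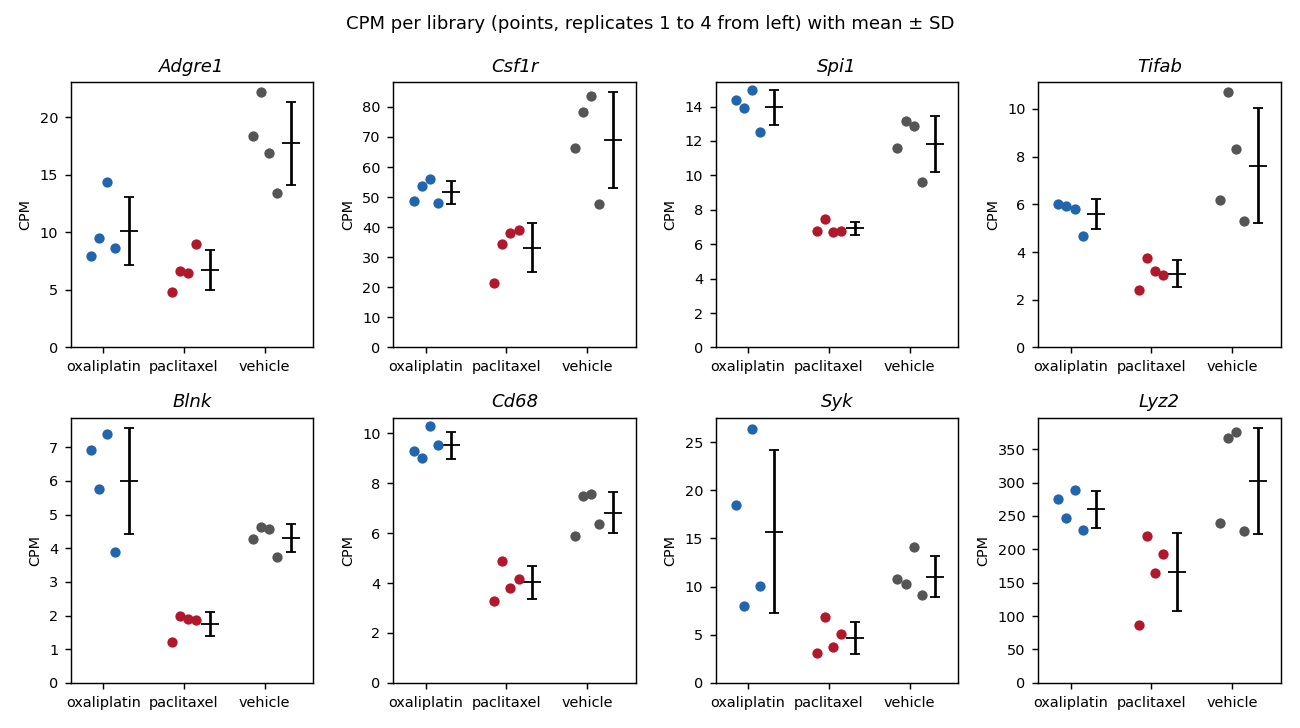
CPM of 8 members in each library (points, replicates 1 to 4 from left) with the mean ± SD (n = 4) beside them, for oxaliplatin, paclitaxel and vehicle. Paclitaxel libraries lie below all vehicle libraries for each of the 8, and oxaliplatin libraries lie above all vehicle libraries for Cd68.

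All 4 genes of the group of transcription factors and the TIFA relative were lower after paclitaxel, and 2 were called. Over all genes, 0.0380% were called lower after paclitaxel. Spi1, which encodes PU.1, had 14.4, 13.9, 14.97 and 12.5 CPM after oxaliplatin, 6.77, 7.45, 6.69 and 6.74 CPM after paclitaxel and 11.6, 13.2, 12.9 and 9.64 CPM in vehicle libraries. The paclitaxel libraries were the lowest 4 of the 12, and the other groups overlapped. Spi1 fell 1.71-fold after paclitaxel (log2 fold change -0.77 ± 0.12, adjusted p = 0.0132, edgeR) and was 2.02-fold higher after oxaliplatin than after paclitaxel (log2 fold change 1.01 ± 0.12, adjusted p = 0.000639), while oxaliplatin against vehicle gave log2 fold change 0.24 ± 0.11, adjusted p = 0.301. The fall was not called without vehicle library 1, 2 or 3 or paclitaxel library 1 or 3 (adjusted p up to 0.0769).

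Tifab, a relative of the signalling adaptor TIFA that is expressed in blood cells, had 6.01, 5.92, 5.82 and 4.66 CPM after oxaliplatin, 2.42, 3.75, 3.20 and 3.02 CPM after paclitaxel and 6.18, 10.7, 8.30 and 5.28 CPM in vehicle libraries. The groups were ordered with paclitaxel lowest, and oxaliplatin overlapped vehicle only through vehicle library 4, the lowest of its group. Tifab fell 2.45-fold after paclitaxel (log2 fold change -1.29 ± 0.22, adjusted p = 0.0349, edgeR), was 1.81-fold higher after oxaliplatin than after paclitaxel (log2 fold change 0.85 ± 0.22, adjusted p = 0.0267) and did not pass for oxaliplatin against vehicle (log2 fold change -0.44 ± 0.21, adjusted p = 0.298). The fall was not called without vehicle library 1, 2 or 3, paclitaxel library 1, 2 or 3 or oxaliplatin library 1 or 2, nor was the difference between the drugs without paclitaxel library 1 or 3 or oxaliplatin library 1, 2 or 3. Irf5, a transcription factor of inflammatory cytokine genes, had 10.2, 7.87, 11.6 and 9.21 CPM after oxaliplatin, 5.62, 6.69, 6.33 and 5.58 CPM after paclitaxel and 6.70, 6.78, 8.24 and 7.12 CPM in vehicle libraries. Every oxaliplatin library was above every paclitaxel library and above all but 1 vehicle library, and the drugs differed (log2 fold change 0.68 ± 0.14, adjusted p = 0.0111) while neither passed against vehicle. Irf8, a factor for monocytes and dendritic cells, varied more within groups and was not called in any comparison (log2 fold change -0.68 ± 0.27, adjusted p = 0.252 for paclitaxel against vehicle).

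PU.1 binds DNA at a purine-rich site, the PU box, whose letters are GAGGAA, and the promoters of the members were searched for it. RefSeq promoter sequences of assembly GRCr8, each 300 bases from 250 before the gene's start to 50 after it, were at hand for 28 of the 37 members. Not matched were Tyrobp, Aif1, Siglec1, Itgb2, Fcer1g, Ncf4, Msr1, Spi1 and Lyn. GAGGAA on either strand was in 18 of the 28 promoters (64.3%), against 3257 of the 12194 promoters of genes tested (26.7%) and 7563 of all 27457 promoters of that length (27.5%). A longer form, GAGGAAGT, which holds the PU box within it, was in 3 of the 28 (10.7%), those of Ctss, Cd53 and Cyth4, against 2.53% of genes tested and 2.44% of all promoters. A match is a run of letters and not a measured binding site, and the shares are a description with no test. The 3 called members with an entry in the comparison of paclitaxel with vehicle are shown first, Adgre1 and Tifab with matches and Blnk without one. Then follow Cd68 and Csf1r, called between the drugs, and Cyth4, which carries the longer form. Each runs 5′ to 3′ along its gene, in lower case with GAGGAA or its reverse complement TTCCTC in capitals, and coordinates are those of GRCr8. Positions are chr9:2329190-2329489 (+ strand) for Adgre1, chr17:8438483-8438782 (+ strand) for Tifab, chr1:249770484-249770783 (- strand) for Blnk, chr10:54882392-54882691 (- strand) for Cd68, chr18:56834129-56834428 (+ strand) for Csf1r and chr7:112032532-112032831 (+ strand) for Cyth4.
Adgre1: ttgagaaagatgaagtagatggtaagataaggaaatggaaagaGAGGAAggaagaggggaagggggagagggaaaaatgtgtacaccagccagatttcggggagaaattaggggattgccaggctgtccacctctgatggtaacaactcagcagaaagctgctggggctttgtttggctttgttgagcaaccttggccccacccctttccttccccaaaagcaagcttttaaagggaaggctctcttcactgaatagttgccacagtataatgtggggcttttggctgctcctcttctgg
Tifab: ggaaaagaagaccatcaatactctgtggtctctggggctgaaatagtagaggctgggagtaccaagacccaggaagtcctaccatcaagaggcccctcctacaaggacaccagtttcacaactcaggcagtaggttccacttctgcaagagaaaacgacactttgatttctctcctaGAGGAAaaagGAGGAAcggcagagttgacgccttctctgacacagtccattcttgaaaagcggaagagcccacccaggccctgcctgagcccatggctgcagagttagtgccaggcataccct
Blnk: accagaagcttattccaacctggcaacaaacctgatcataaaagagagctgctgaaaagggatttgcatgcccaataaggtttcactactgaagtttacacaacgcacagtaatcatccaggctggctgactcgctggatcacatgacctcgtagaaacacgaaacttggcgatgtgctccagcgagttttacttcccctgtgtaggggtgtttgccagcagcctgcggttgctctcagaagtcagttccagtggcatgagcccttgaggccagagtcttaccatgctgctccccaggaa
Cd68: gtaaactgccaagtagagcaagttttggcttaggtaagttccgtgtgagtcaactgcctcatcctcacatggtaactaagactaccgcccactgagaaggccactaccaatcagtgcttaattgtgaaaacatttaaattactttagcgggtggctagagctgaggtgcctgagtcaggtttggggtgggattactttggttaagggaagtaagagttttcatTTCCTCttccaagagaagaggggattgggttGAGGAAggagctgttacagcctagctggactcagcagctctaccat
Csf1r: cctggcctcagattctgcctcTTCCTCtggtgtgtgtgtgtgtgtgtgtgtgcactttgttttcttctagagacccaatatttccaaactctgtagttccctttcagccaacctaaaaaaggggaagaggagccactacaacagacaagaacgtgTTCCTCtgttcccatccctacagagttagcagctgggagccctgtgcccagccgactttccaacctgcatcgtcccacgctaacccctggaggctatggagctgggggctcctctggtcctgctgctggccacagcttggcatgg
Cyth4: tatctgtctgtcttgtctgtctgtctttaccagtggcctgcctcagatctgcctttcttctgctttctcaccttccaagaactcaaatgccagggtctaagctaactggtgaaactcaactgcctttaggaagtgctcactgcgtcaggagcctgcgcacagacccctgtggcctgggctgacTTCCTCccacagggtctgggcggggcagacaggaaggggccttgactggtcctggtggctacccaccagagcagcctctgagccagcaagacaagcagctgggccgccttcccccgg

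The members Itgam and Itgb2 encode the chains of the integrin CD11b/CD18, the complement receptor of macrophages and neutrophils. Itgam had 3.64, 4.997, 5.42 and 5.73 CPM after oxaliplatin, 1.45, 3.29, 3.31 and 3.19 CPM after paclitaxel and 5.14, 4.97, 5.15 and 5.57 CPM in vehicle libraries. Paclitaxel libraries were lowest, library 1 by far, and oxaliplatin overlapped vehicle. It was called between the drugs (log2 fold change 0.81 ± 0.23, adjusted p = 0.0386, edgeR) but not for paclitaxel against vehicle (log2 fold change -0.89 ± 0.23, adjusted p = 0.198). Itgb2, which all leukocytes share, had 13.3, 9.19, 15.4 and 6.91 CPM after oxaliplatin, 2.96, 9.21, 5.15 and 4.36 CPM after paclitaxel and 6.30, 6.37, 8.70 and 8.49 CPM in vehicle libraries. Its groups overlapped in every comparison, with the highest values in oxaliplatin libraries 3 and 1, and the difference between the drugs passed by little (log2 fold change 1.05 ± 0.31, adjusted p = 0.0466). Itgam was not called without vehicle library 1, paclitaxel library 1, 2 or 3 or oxaliplatin library 2, 3 or 4 (adjusted p up to 0.1045). Itgb2 was called in only 2 of the 12 fits that left out 1 library, those without paclitaxel library 2 or oxaliplatin library 4, and in 4 of the 9 other settings.

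Of the 10 adaptors and signalling genes, all were lower after paclitaxel than in vehicle libraries and 6 were called higher after oxaliplatin than after paclitaxel. Over all genes, 6.60% were called higher between the drugs. Blnk, an adaptor downstream of SYK in B cells that macrophages also express, had 6.93, 5.74, 7.40 and 3.88 CPM after oxaliplatin, 1.21, 1.99, 1.89 and 1.86 CPM after paclitaxel and 4.28, 4.62, 4.58 and 3.73 CPM in vehicle libraries. Paclitaxel libraries lay below all others, and oxaliplatin overlapped vehicle only through its library 4. Blnk fell 2.46-fold after paclitaxel (log2 fold change -1.30 ± 0.22, adjusted p = 0.0367, edgeR) and was 3.43-fold higher after oxaliplatin than after paclitaxel (log2 fold change 1.78 ± 0.22, adjusted p = 0.000993). The fall was called in 3 of the 12 fits that left out 1 library, those without paclitaxel library 4 or oxaliplatin library 3 or 4, with adjusted p-values up to 0.128 in the others. Syk, the kinase recruited by ITAM motifs, had 18.5, 7.98, 26.4 and 10.1 CPM after oxaliplatin, 3.08, 6.81, 3.73 and 5.11 CPM after paclitaxel and 10.7, 10.2, 14.1 and 9.13 CPM in vehicle libraries. Values were highest in oxaliplatin libraries 3 and 1, and all paclitaxel libraries were below all others. Syk was 3.35-fold higher after oxaliplatin than after paclitaxel (log2 fold change 1.74 ± 0.36, adjusted p = 0.0135), and paclitaxel against vehicle did not pass (log2 fold change -1.24 ± 0.36, adjusted p = 0.204).

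Lyn, a kinase of the SRC family, had 13.3, 12.01, 14.6 and 11.1 CPM after oxaliplatin, 4.84, 8.74, 8.11 and 6.85 CPM after paclitaxel and 9.82, 11.9, 12.9 and 8.90 CPM in vehicle libraries. Paclitaxel libraries did not overlap either other group, and the drugs differed (log2 fold change 0.84 ± 0.18, adjusted p = 0.0128, edgeR). Fcer1g, the common gamma chain of Fc receptors, had 20.6, 17.7, 19.5 and 16.1 CPM after oxaliplatin, 7.08, 11.6, 11.3 and 11.7 CPM after paclitaxel and 13.1, 22.3, 22.4 and 13.9 CPM in vehicle libraries. Paclitaxel libraries were again the lowest 4, and the drugs differed (log2 fold change 0.83 ± 0.20, adjusted p = 0.0221) while paclitaxel against vehicle did not pass (log2 fold change -0.78 ± 0.20, adjusted p = 0.190). Tyrobp, the adaptor DAP12 of TREM2 and related receptors, had 18.6, 20.1, 19.1 and 15.6 CPM after oxaliplatin, 7.80, 14.5, 10.5 and 13.01 CPM after paclitaxel and 13.5, 26.7, 25.9 and 15.3 CPM in vehicle libraries. Paclitaxel library 2 overlapped vehicle library 1, and no comparison passed (log2 fold change 0.68 ± 0.23, adjusted p = 0.0695 between the drugs).

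Ptprc encodes CD45, the phosphatase on the surface of leukocytes. It had 15.5, 9.59, 24.6 and 8.88 CPM after oxaliplatin, 1.69, 6.04, 4.91 and 5.92 CPM after paclitaxel and 8.78, 7.37, 10.6 and 11.8 CPM in vehicle libraries. Oxaliplatin libraries 3 and 1 were the highest 2 and paclitaxel library 1 the lowest, and the drugs differed (log2 fold change 1.65 ± 0.39, adjusted p = 0.0221, edgeR). Cyth4, an exchange factor for ARF GTPases in leukocytes, had 16.1, 18.1, 17.96 and 14.7 CPM after oxaliplatin, 8.10, 12.1, 10.8 and 11.1 CPM after paclitaxel and 13.98, 19.8, 18.02 and 12.2 CPM in vehicle libraries. Paclitaxel libraries lay below both other groups, which overlapped, and the drugs differed (log2 fold change 0.67 ± 0.16, adjusted p = 0.0221). Between the drugs, Fcer1g was not called without paclitaxel library 1 or 3 or oxaliplatin library 1 or 3, Cyth4 without paclitaxel library 1 or 3 or oxaliplatin library 2 or 3, and Ptprc without paclitaxel library 3 or oxaliplatin library 3. The other 3 were not called in any comparison. They were Laptm5, a lysosomal membrane protein that limits antigen receptor signalling, Cd53, a tetraspanin of leukocytes, and Dock2, an activator of RAC in migrating leukocytes. Their log2 fold changes between oxaliplatin and paclitaxel were 0.59, 0.40 and 0.35.

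The phagocyte NADPH oxidase makes superoxide from a membrane core of CYBB and CYBA, joined on activation by cytosolic subunits that include NCF1 and NCF4. Cybb had 3.12, 5.63, 8.87 and 5.17 CPM after oxaliplatin, 1.09, 3.23, 3.37 and 2.56 CPM after paclitaxel and 5.55, 5.96, 6.12 and 4.25 CPM in vehicle libraries. Paclitaxel libraries lay below all vehicle libraries, and oxaliplatin library 1 lay within the paclitaxel range. Cyba, which many cell types express, had 26.96, 22.9, 19.03 and 19.7 CPM after oxaliplatin, 14.997, 16.9, 15.9 and 16.3 CPM after paclitaxel and 15.5, 22.2, 21.7 and 17.4 CPM in vehicle libraries. Its paclitaxel libraries were close to each other and below all oxaliplatin libraries. Both core subunits were called between the drugs (log2 fold change 1.15 ± 0.33, adjusted p = 0.0403 for Cybb and log2 fold change 0.47 ± 0.14, adjusted p = 0.0406 for Cyba, edgeR), neither was called for paclitaxel against vehicle, and Ncf1 (log2 fold change 0.17 ± 0.13, adjusted p = 0.410) and Ncf4 (log2 fold change 0.56 ± 0.25, adjusted p = 0.148) were not called between the drugs. Neither core subunit was called between the drugs without paclitaxel library 1, 2 or 3 or oxaliplatin library 2 or 3, nor was Cybb without vehicle library 1 or 3 or Cyba without oxaliplatin library 1.

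Cd68, a lysosomal glycoprotein of macrophages, was the 1 member whose oxaliplatin libraries all lay above the vehicle libraries. It had 9.30, 9.02, 10.3 and 9.55 CPM after oxaliplatin, 3.27, 4.87, 3.79 and 4.18 CPM after paclitaxel and 5.89, 7.48, 7.55 and 6.37 CPM in vehicle libraries. The 3 groups did not overlap at all, with paclitaxel lowest and oxaliplatin highest. The difference between the drugs was 2.37-fold (log2 fold change 1.24 ± 0.14, adjusted p = 0.000639, edgeR), whereas neither drug passed against vehicle, at log2 fold change -0.76 ± 0.15, adjusted p = 0.0797 for paclitaxel and log2 fold change 0.48 ± 0.14, adjusted p = 0.0980 for oxaliplatin. Lyz2 had 276, 246, 289 and 228 CPM after oxaliplatin, 85.99, 219.7, 165 and 193 CPM after paclitaxel and 239, 367, 375 and 227 CPM in vehicle libraries. Its paclitaxel libraries were below all others, and no comparison passed (log2 fold change -0.86 ± 0.25, adjusted p = 0.204 for paclitaxel against vehicle). Aif1, the actin-binding protein IBA1 that is used to stain macrophages and microglia, had 12.1, 17.5, 14.9 and 9.04 CPM after oxaliplatin, 6.17, 10.7, 9.41 and 10.6 CPM after paclitaxel and 13.4, 26.7, 18.7 and 14.8 CPM in vehicle libraries. Paclitaxel libraries lay below vehicle libraries without overlap, oxaliplatin overlapped both, and paclitaxel against vehicle did not pass (log2 fold change -0.99 ± 0.25, adjusted p = 0.190). Ctss, the lysosomal protease cathepsin S, was similar, with log2 fold change -0.78 ± 0.22, adjusted p = 0.203 for paclitaxel against vehicle.

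Members found mostly in macrophages were set beside those that other leukocytes share. Of the 13 tested members found mostly in macrophages, which are the surface receptors other than Cd86, with Cd68 and Aif1, all were lower after paclitaxel (median -0.99 on the log2 scale, 1 called) and 10 were lower and 3 higher after oxaliplatin (median -0.42, 0 called), each against vehicle. Of the 23 members that other leukocytes share, all were lower after paclitaxel (median -0.77, 3 called), and 7 were lower and 16 higher after oxaliplatin (median 0.06, 0 called). Between the drugs, 2 of the 13 and 14 of the 23 were called higher after oxaliplatin. Over all genes, 6.60% were called higher in that comparison and 0.0380% were called lower after paclitaxel against vehicle. The difference between both sets of members was not tested. The mean level of the 13 relative to vehicle, in log2 CPM, was -0.51, -0.21, -0.01 and -0.33 in oxaliplatin libraries 1 to 4, -1.58, -0.93, -0.76 and -0.68 in paclitaxel libraries and -0.09, 0.20, 0.21 and -0.32 in vehicle libraries. Paclitaxel libraries were all below the others, and oxaliplatin overlapped vehicle. That of the 23 was 0.14, 0.02, 0.36 and -0.17 in oxaliplatin libraries, -1.27, -0.45, -0.61 and -0.64 in paclitaxel libraries and -0.16, 0.15, 0.21 and -0.19 in vehicle libraries. Again the 4 paclitaxel libraries were the lowest, and oxaliplatin library 3 was the highest.

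Levels of markers of other blood cells also differed between the groups, and their part in the members' differences was not tested. All 12 neutrophil markers tested had lower means than vehicle after each drug, with 0 called by edgeR in either, and 11 with an unadjusted p under 0.05 after paclitaxel and 0 after oxaliplatin. Over all genes, 17.1% had such a p after paclitaxel and 17.2% after oxaliplatin. All 12 neutrophil markers were higher after oxaliplatin than after paclitaxel, with 0 called and 3 with an unadjusted p under 0.05, against 29.4% of all genes. Their summed level was 27.3 to 109.7 CPM after oxaliplatin, 16.9 to 53.4 CPM after paclitaxel and 60.9 to 118 CPM in vehicle libraries, with no overlap between paclitaxel and vehicle. S100a9, a granulocyte calcium-binding protein, had 36.4, 9.48, 25.6 and 13.4 CPM after oxaliplatin, 5.56, 16.9, 11.7 and 8.13 CPM after paclitaxel and 17.7, 27.4, 40.4 and 30.8 CPM in vehicle libraries. The summed level of 8 B and plasma cell markers was 34.1 to 104 CPM after oxaliplatin, 22.7 to 31.2 CPM after paclitaxel and 30.4 to 37.7 CPM in vehicle libraries, and 6 of the 8 were called higher after oxaliplatin than after paclitaxel. Cd79b, a chain of the B-cell receptor, had 16.98, 2.93, 15.2 and 5.67 CPM after oxaliplatin, 0.907, 3.11, 1.18 and 1.57 CPM after paclitaxel and 2.02, 2.92, 3.95 and 3.33 CPM in vehicle libraries. Oxaliplatin libraries 1 and 3 were the highest for Cd79b and for the mean level of erythroid markers, as they were for members that include Syk, Ptprc, Blnk, Itgb2, Spi1, Irf5 and Lyn. Other members differed: Cd86, which B cells also carry, and Cd53 were highest in vehicle library 2, and Laptm5 in oxaliplatin library 2. The counts of Syk, Itgb2 and Cd53 are uncertain. With oxaliplatin libraries 1 and 3 left out together, an alternative chosen after seeing the data, Spi1, Blnk and Cd68 were the members still called between the drugs. That fit has fewer oxaliplatin libraries and called 93 of all genes, against 1788 with all libraries. The cause of the lost calls was not tested. The summed level of 11 erythroid genes was 2803 to 9502 CPM after oxaliplatin, 589 to 1638 CPM after paclitaxel and 1320 to 2733 CPM in vehicle libraries, and 9 were called higher after oxaliplatin than after paclitaxel. Over all genes, 6.60% were called higher in that comparison. The highest erythroid sums were those of oxaliplatin libraries 1 and 3, at 8301 and 9502 CPM. Against vehicle, 0 erythroid genes and 0 B and plasma cell markers were called for either drug. An unadjusted p under 0.05 was found for 9 of the 11 and 7 of the 8 after oxaliplatin, all with higher means. After paclitaxel, all 11 erythroid genes and 7 of the 8 B and plasma cell markers had lower means than vehicle. Of these lists, 4 erythroid genes and 1 B and plasma cell marker had an unadjusted p under 0.05 after paclitaxel. Of 10 T and NK cell markers, 5 passed the filter on low counts, with 0 called in any comparison (0, 1 and 0 with an unadjusted p under 0.05 for paclitaxel against vehicle, oxaliplatin against vehicle and oxaliplatin against paclitaxel), and the T-cell receptor genes Cd3e, Cd3d, Cd3g and Cd247 did not pass it. Of other cells of the tissue, all 8 fibroblast markers had lower means after paclitaxel than in vehicle (0 called, 7 with an unadjusted p under 0.05). All 6 satellite glia markers also had lower means (0 called, 3 with an unadjusted p under 0.05). Of 12 sensory neuron markers, 11 had higher means (0 called, 6 with an unadjusted p under 0.05). After oxaliplatin against vehicle, 7 of the 8 fibroblast markers had higher means (0 called, 3 with an unadjusted p under 0.05), 8 of the 9 endothelial markers had higher means (0 called, 5 with an unadjusted p under 0.05) and 11 of the 12 sensory neuron markers had lower ones (1 called). The summed level of the fibroblast markers was 3412 to 4215 CPM after oxaliplatin, 2101 to 2686 CPM after paclitaxel and 2620 to 3732 CPM in vehicle libraries, and that of the endothelial markers was 225 to 266 CPM after oxaliplatin, 173 to 197 CPM after paclitaxel and 172 to 246 CPM in vehicle libraries. The drug groups did not overlap for either list.

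**Figure D4:**
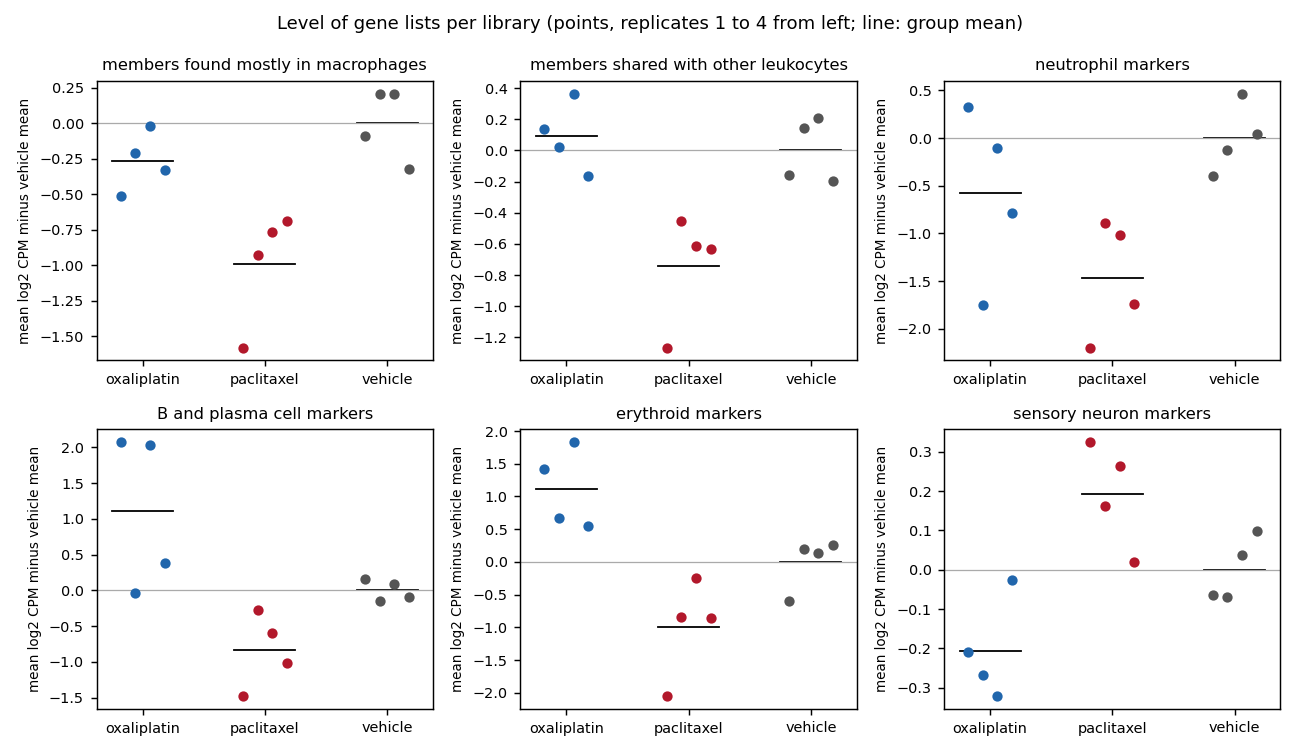
Mean log2 CPM of a list of genes in each library minus the mean over vehicle libraries (points, replicates 1 to 4 from left, line at the group mean), for members found mostly in macrophages, members shared with other leukocytes, and markers of neutrophils, B and plasma cells, erythroid cells and sensory neurons. Paclitaxel libraries are the lowest 4 for both sets of members, and oxaliplatin libraries 1 and 3 are the highest for B and plasma cell markers and for erythroid markers.

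The levels of 73 other genes of macrophage pathways, from 81 listed, were examined beside the members. After paclitaxel 56 were lower and 17 higher than in vehicle libraries, with 0 called by edgeR and 29 with an unadjusted p under 0.05 (median log2 fold change -0.27), where 17.1% of all genes had such a p. After oxaliplatin 26 were lower and 47 higher, with 3 called higher (median 0.11), against 1.05% of all genes. Between the drugs 17 of the 73 were called higher after oxaliplatin and 0 lower (median 0.50), against 6.60% of all genes called higher.

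Of 12 genes of resident tissue macrophages tested, 11 were lower after paclitaxel than in vehicle libraries (median -0.75, 0 called, 8 with an unadjusted p under 0.05). Between the drugs, 6 were called higher after oxaliplatin. Over all genes, 17.1% had such an unadjusted p after paclitaxel and 6.60% were called higher between the drugs. Lyve1, a hyaluronan receptor of macrophages along vessels and of lymphatic endothelium, had log2 fold change 1.18 ± 0.18, adjusted p = 0.00402 between the drugs (edgeR). F13a1, a coagulation factor subunit, gave log2 fold change 1.14 ± 0.23, adjusted p = 0.0113, and Folr2, a folate receptor, log2 fold change 1.09 ± 0.25, adjusted p = 0.0191. Lyve1 is uncertain, because its counts were not whole in 12 libraries.

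Of 12 Fc receptor and ITAM signalling genes tested, 4 were called higher after oxaliplatin than after paclitaxel, against 6.60% of all genes. They were Btk (log2 fold change 1.44 ± 0.31, adjusted p = 0.0135, edgeR), a kinase of B cells and myeloid cells, Pik3ap1 (log2 fold change 1.18 ± 0.26, adjusted p = 0.0166), a PI3-kinase adaptor, Vav1 (log2 fold change 1.08 ± 0.25, adjusted p = 0.0177), an exchange factor of leukocytes, and Plcg2 (log2 fold change 1.08 ± 0.30, adjusted p = 0.0372), a phospholipase. None was called against vehicle in either drug group, where 5 of the 12 after paclitaxel and 2 after oxaliplatin had an unadjusted p under 0.05. Over all genes, 17.1% and 17.2% had such a p, so the oxaliplatin count was close to that share. Of 12 genes of C1q, efferocytosis and scavenging, 3 were called between the drugs: Axl (log2 fold change 0.57 ± 0.12, adjusted p = 0.0151), a receptor for apoptotic cells, Stab1 (log2 fold change 0.97 ± 0.25, adjusted p = 0.0312), a scavenger receptor whose value is uncertain, and C1qb (log2 fold change 0.74 ± 0.20, adjusted p = 0.0320), a chain of complement C1q. Mfge8, a bridge to apoptotic cells, was called higher after oxaliplatin than in vehicle libraries (log2 fold change 0.36 ± 0.08, adjusted p = 0.0320).

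Of the growth factors and attractants of monocytes, Csf1, a ligand of CSF1R, had 34.5, 39.1, 35.02 and 37.5 CPM after oxaliplatin, 22.9, 25.5, 27.4 and 23.8 CPM after paclitaxel and 25.1, 26.8, 30.04 and 20.8 CPM in vehicle libraries. All oxaliplatin libraries were above all others, and Csf1 rose after oxaliplatin against vehicle (log2 fold change 0.51 ± 0.11, adjusted p = 0.0345, edgeR) and against paclitaxel (log2 fold change 0.55 ± 0.11, adjusted p = 0.00955) while paclitaxel against vehicle gave log2 fold change -0.04 ± 0.11, adjusted p = 0.842. It was the 1 gene of the 8 tested in that list to be called. Among other NADPH oxidase genes, 2 of 7 were called between the drugs, Rac2 (log2 fold change 0.97 ± 0.26, adjusted p = 0.0311), a small GTPase of leukocytes, and Nox4 (log2 fold change 1.95 ± 0.47, adjusted p = 0.0221), an oxidase of non-phagocytic cells. Of 7 monocyte genes, 0 were called in any comparison. Those with the smallest p after paclitaxel were Clec12a, an inhibitory lectin, with log2 fold change -1.06 ± 0.27, adjusted p = 0.190, and Ly86, a partner of a toll-like receptor relative, with log2 fold change -0.43 ± 0.21, adjusted p = 0.304. An unadjusted p under 0.05 was found for 1, 1 and 2 of the 7 for paclitaxel against vehicle, oxaliplatin against vehicle and oxaliplatin against paclitaxel. The shares of all genes were 17.1%, 17.2% and 29.4% in the same order.

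Lysosomal proteins are made by many cell types of the ganglion besides macrophages. Of 15 tested, 8 were lower and 7 higher after paclitaxel, with a median log2 fold change of -0.04 and 0 called (5 with an unadjusted p under 0.05, against 17.1% of all genes). The mean level of the list relative to vehicle lay between 0.02 and 0.17 in oxaliplatin libraries and between -0.01 and 0.03 in paclitaxel libraries, in log2 CPM. The 1 gene called was Gpnmb, a glycoprotein of lipid-laden and phagocytic macrophages and of other cells, which had 21.5, 22.3, 20.1 and 24.5 CPM after oxaliplatin, 6.23, 10.6, 8.35 and 8.54 CPM after paclitaxel and 8.32, 9.47, 11.2 and 6.54 CPM in vehicle libraries. Every oxaliplatin library was above every other library, and Gpnmb rose after oxaliplatin against vehicle (log2 fold change 1.31 ± 0.17, adjusted p = 0.00204, edgeR) and against paclitaxel (log2 fold change 1.39 ± 0.17, adjusted p = 0.000939).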

How the data were processed

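Per the labels' protocols, Trizol was used to extract total RNA from the frozen ganglia and a BGISEQ-500 kit to prepare the libraries. Illumina protocols are also named there, and whether strand was kept is not stated. Per the file headers, the authors' table of each library gives an expected count, an estimate that divides reads matching several genes, and an FPKM value for each gene. CASAVA 1.4 and Bowtie2 are listed in the submitters' processing notes, and the quantifier and genome build are not given in the sources used here. No value under 0.01 FPKM is listed, and an absent gene was taken as 0.

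The estimated counts, 17008728 to 17615736 per library, were rounded, and edgeR 4.0.16 (R 4.3.3) was used to fit them (default expression filter with a minimum count of 10, TMM, robust quasi-likelihood, 3 group means, 9 residual degrees of freedom). Tests were two-sided. CPM values are TMM-scaled, and the score of a list is its mean log2 CPM (prior count 2) minus the vehicle mean. The common dispersion had a square root of 0.159, and precision is that of 4 libraries per group. Between 30.3% and 31.5% of estimated counts were not whole (tolerance 0.001). Each library was used as 1 replicate. Counts of libraries of 1 group differed by more than sampling noise (chi-square per gene 8.07 to 44.9), which does not show that they came from different animals. Alternatives were DESeq2 1.42.0, limma 3.58.1 (voom with quality weights, and log2(FPKM + 1) or log2(FPKM + 0.1)), DESeq2 size factors, no filter, only the groups compared, a replicate block and leaving out each library. The scripts were tested on simulated counts.

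The members, gene lists and tests were chosen with earlier results of these data known. Values per library are given for each member called in any comparison, for those with the smallest p in each oxaliplatin comparison and for 12 defining members. Of each pathway list up to 4 called genes are named, by smallest p, or else the 2 with the smallest p after paclitaxel. A gene that this rule names is not reported here. Of a list of another cell type at most 3 are named, the most abundant. Other genes named as not passing the filter were chosen after their values were seen.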

Additional observations from a re-analysis of the deposited data

Results flagged for a closer look

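Of 81 groups of 4 libraries examined, 6 held a library far from the other 3 by Dixon's criterion, where chance flags about 1 group in 20. In paclitaxel library 1, Itgam was at 1.45 CPM against 3.19 to 3.31 CPM in the other 3 libraries of its group, and Fcer1g at 7.08 CPM against 11.3 to 11.7 CPM. The mean level of all members in that library was -1.38 relative to vehicle, in log2 CPM, against -0.67 to -0.62 in the other paclitaxel libraries. Spi1 was highest in paclitaxel library 2, at 7.45 CPM against 6.69 to 6.77 CPM. In oxaliplatin library 4, Cd86 was at 0.730 CPM against 0.960 to 0.982 CPM, and Tifab at 4.66 CPM against 5.82 to 6.005 CPM.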

How the results depend on the processing

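With 4 libraries per group, calls near the threshold moved with single libraries, while direction did not: all 36 members stayed lower after paclitaxel than in vehicle and higher after oxaliplatin than after paclitaxel in every setting run. For oxaliplatin against vehicle the sign count depends on the libraries used. Of 940 values of 24 named members in 44 comparisons, 775 stayed on their side of the threshold, 125 lost their call, 40 gained one and 0 reversed. Only a comparison called in the main fit could lose its call, 4 for paclitaxel against vehicle and 16 between the drugs. The 125 losses thus fell among fewer values than the 940. The cause of the lost and gained calls was not tested. For paclitaxel against vehicle, 19 genes and 4 members were called. DESeq2 called 247 genes and 18 members, limma voom 2017 and 17, and leaving out 1 library gave 10 to 1631 genes and 0 to 15 members. Members called were 2 with limma on log2(FPKM + 1) without a filter, 2 with only the groups compared and 2 with the replicate block. For oxaliplatin against vehicle, with 278 genes and 0 members called, DESeq2 called 881 genes and 2 members (1 lower, 1 higher), limma voom 599 and 1, limma on log2(FPKM + 1) 1 member, only the groups compared 161 genes, the replicate block 72 genes, and leaving out 1 library 49 to 357 genes and 0 to 1 members. For oxaliplatin against paclitaxel, with 1788 genes and 16 members called, the counts were 2795 genes with DESeq2, 4726 with limma voom, 1016 with only the groups compared, 986 with the replicate block, and 571 to 3463 genes and 6 to 20 members with 1 library left out. Leaving out oxaliplatin replicates 1 and 3 together, chosen after seeing the data, gave 93 genes and 3 members. Limma on log2(FPKM + 1) called 9 genes lower and 12 higher after paclitaxel, against 6 and 13 by edgeR, 74 and 256 after oxaliplatin, against 112 and 166, and 277 and 1507 between the drugs, against 744 and 1044. Libraries with the same replicate number did not deviate together (correlations of -0.232 to 0.157), and the main fit used no pairing. These correlations cannot show whether libraries of the same number shared a batch.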

Other observations

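Members also differed in their ratio to each other within a library, which does not depend on how libraries are scaled. These ratios were chosen after the values were seen and are given with no test. The ratio of the estimated count of Adgre1 to that of Spi1 was 0.550 to 0.962 after oxaliplatin, 0.714 to 1.34 after paclitaxel and 1.31 to 1.68 in vehicle libraries. All oxaliplatin libraries, and all paclitaxel libraries but the fourth, lay below the lowest vehicle library. The ratio of Adgre1 to Cd68 was 0.851 to 1.401 after oxaliplatin, 1.36 to 2.15 after paclitaxel and 2.11 to 3.12 in vehicle libraries, so that oxaliplatin and vehicle libraries did not overlap. The ratio of Csf1r to Spi1 was 3.38 to 3.86 after oxaliplatin, 3.16 to 5.78 after paclitaxel and 4.95 to 6.50 in vehicle libraries. The ratio of Cybb to Cyba was 0.116 to 0.466 after oxaliplatin, 0.0726 to 0.213 after paclitaxel and 0.244 to 0.357 in vehicle libraries, and every paclitaxel library was below every vehicle library.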
